A study of Mus musculus with 2 samples.

Results

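Surface receptors that guide T cells into, through and out of lymphoid organs were followed in regulatory T cells (Treg cells), CD4+ lymphocytes that depend on the transcription factor Foxp3 and hold immune responses in check. They are Ccr7, S1pr1, S1pr4, Cxcr4, Cxcr5 and Gpr183, chosen by name, and all 6 are among the 24081 gene symbols of the count table. Each passed the floor of a mean of 20 reads over both libraries, as did 10899 genes in all, which are called measured. The study's question is whether these cells require SUMOylation, in which a small protein, SUMO, is joined to a target protein, to expand and to work. RNA came from spleen and lymph node cells of C57BL/6 mice aged 5 weeks, sorted as CD4+ YFP+. The KO library came from mice with Foxp3cre/wt and both alleles of a SUMO pathway gene floxed, and the WT library from mice with the same Foxp3cre/wt and 1 floxed allele. Both groups therefore carry the Foxp3-driven Cre recombinase, which acts in cells that express Foxp3 and which YFP marks, and the control is not free of a floxed allele. The Foxp3 locus is on the X chromosome, so mice with 1 Cre copy also hold Treg cells without Cre, and the YFP sort leaves those cells out.

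Each group is 1 library of cells pooled from 5 to 10 mice, so differences cannot be set against a spread between replicates and no test was run. The KO library held 23789264 reads in genes and the WT library 11662867. Both samples carry a wild-type genotype label, and only their titles, KO and WT, tell them apart, so every direction rests on the titles. Folds are ratios of CPM (read counts over the library size, scaled with the TMM method), and their intervals are exact 95% intervals for counting error only. Calls use the log2 ratio with a pseudocount of 1 and a threshold of 1.5-fold. Of 9 Treg and T cell markers, 9 were detected in each library, with a summed level of 6750 CPM in KO and 5613 in WT. Single markers went both ways, with log2 ratios of 0.89 for Foxp3, -0.69 for Ctla4, -0.66 for Ikzf2 and -0.53 for Cd3g.

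The 6 receptors couple to G proteins and read chemical gradients. Ccr7 binds the chemokines Ccl19 and Ccl21 and brings lymphocytes across the vessels of lymph nodes into the T cell zone. S1pr1 senses sphingosine 1-phosphate (S1P), a lipid that is abundant in blood and lymph, and lets cells leave. S1pr4 is a related S1P receptor of blood cells. Cxcr4 binds Cxcl12 and holds cells near the stroma that makes it. Cxcr5 binds Cxcl13 and leads cells into B cell follicles, and it marks follicular regulatory T cells. Gpr183, also called EBI2, binds oxysterols and places cells at the border of follicle and T cell zone.

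The RefSeq promoter table (GRCm38.p6) held 3 of the 6 receptors, S1pr4, Cxcr4 and Gpr183, and all 3 are shown. With TMM scaling Cxcr4 and S1pr4 were slightly higher and Gpr183 lower in the KO library. Whether the motifs bear on these directions was not tested. Each line gives the 250 bases before the start site, on the minus strand, 5′ to 3′. Capitals mark the letters CACCC, which Krüppel-like factors bind, and CANNTG, the E-box, on either strand; no 2 matches overlap.
S1pr4, chr10:81500138-81500387: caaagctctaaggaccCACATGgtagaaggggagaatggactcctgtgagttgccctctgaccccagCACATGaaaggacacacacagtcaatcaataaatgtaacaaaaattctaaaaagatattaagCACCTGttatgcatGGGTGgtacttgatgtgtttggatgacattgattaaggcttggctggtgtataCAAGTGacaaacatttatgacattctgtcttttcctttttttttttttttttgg
Cxcr4, chr1:128592300-128592549: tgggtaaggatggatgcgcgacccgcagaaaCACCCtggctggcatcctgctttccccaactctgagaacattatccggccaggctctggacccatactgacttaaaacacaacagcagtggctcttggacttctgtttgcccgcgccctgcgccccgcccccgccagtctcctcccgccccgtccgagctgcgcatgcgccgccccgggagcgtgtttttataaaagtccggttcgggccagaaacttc
Gpr183, chr14:121965194-121965443: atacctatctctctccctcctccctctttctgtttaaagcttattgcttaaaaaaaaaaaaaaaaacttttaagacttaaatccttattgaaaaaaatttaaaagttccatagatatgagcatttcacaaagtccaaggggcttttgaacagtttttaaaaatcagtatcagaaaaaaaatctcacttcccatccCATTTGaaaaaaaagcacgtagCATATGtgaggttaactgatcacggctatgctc
The CACCC letters were found 1 time in S1pr4, at 107 to 103 bases before the start, 1 time in Cxcr4, at 219 to 215 bases, and 0 times in Gpr183. E-box letters were found 4 times in S1pr4, 0 times in Cxcr4 and 2 times in Gpr183. The forkhead letters GTAAACA were in none of the 3 windows. Among 32851 promoter windows of the same length, 52.0% held CACCC, 66.2% an E-box and 3.17% GTAAACA, so the first pair of motifs is common. The windows also differ in base composition: 38.8% G or C in S1pr4, 61.2% in Cxcr4 and 32.0% in Gpr183.

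Cxcr5, the follicle receptor, was 3.23-fold lower in the KO library, and Gpr183 was 1.43-fold lower. Ccr7 was 1.39-fold and S1pr1 1.23-fold higher. S1pr4 was 1.20-fold and Cxcr4 1.14-fold higher with TMM scaling, but S1pr4 was slightly lower with the GC and length trend removed, and both were slightly lower when scaled to the reads of Cd4. At 1.5-fold, 0 of 6 were higher and 1 of 6, Cxcr5, was lower. Over all measured genes 7.43% passed 1.5-fold upwards and 5.51% downwards. Cxcr5 also passed 2-fold, as 2.08% of measured genes did downwards; 1.59% passed it upwards. The counting interval lay above 1 for 4 receptors and below 1 for 2, but at this depth it did so for 29.1% and 25.6% of all measured genes, so a narrow interval alone sets no receptor apart. The 6 log2 ratios had a median of 0.23, against 0.012 over all measured genes.

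**Figure D1:**
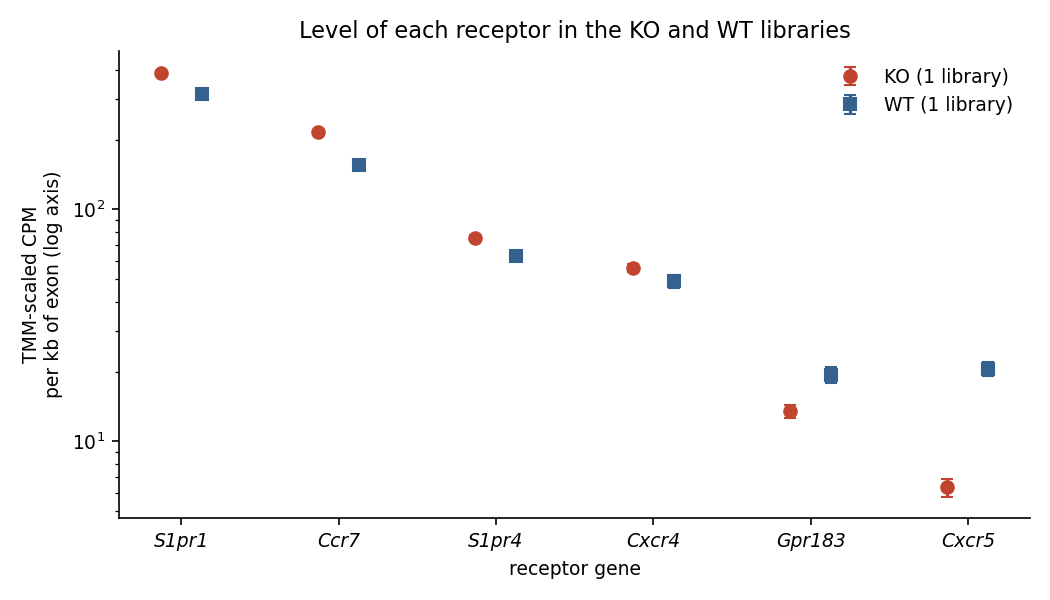
Level of each receptor per kb of exon, in TMM-scaled CPM on a log axis, for the KO library (circles) and the WT library (squares); bars are exact 95% Poisson intervals and cover counting error only. S1pr1 and Ccr7 lead in both libraries, and Cxcr5 shows the widest gap, at 6.34 in KO and 20.5 in WT.

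Ccr7 (chromosome 11, 99144196 to 99155077, minus strand, GRCm38) had 9910 reads in the KO library and 3689 in the WT library. This is 428 CPM in KO (counting interval 419 to 436) and 308 in WT (298 to 318). The KO level was therefore 1.39-fold higher (1.34 to 1.44), the highest ratio of the 6. Its log2 ratio of 0.47 stood at percentile 88.5 of measured genes.

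S1pr1 (chromosome 3, 115710433 to 115715072, minus strand) had 27288 reads in KO and 11459 in WT, or 1178 and 957 CPM. The KO level was 1.23-fold higher (1.20 to 1.26). S1pr4 (chromosome 10, 81497747 to 81500132, minus strand) had 4160 reads in KO and 1793 in WT, or 180 and 150 CPM, which is 1.20-fold higher (1.13 to 1.27). As counted, S1pr1 reads per S1pr4 read were 6.56 in KO and 6.39 in WT, and the ratio of these, 1.03 (0.967 to 1.09), includes 1. With the GC and length trend removed they differed, with log2 ratios of 0.39 for S1pr1 and -0.045 for S1pr4. Of the other S1P receptors, S1pr2, which slows migration, was measured and had a log2 ratio of -0.040 (329 reads in KO, 175 in WT). S1pr3 had 17 reads in KO and 16 in WT, and S1pr5 had 5 and 2, too few to compare.

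Cxcr4 (chromosome 1, 128588199 to 128592293, minus strand) had 2337 reads in KO and 1061 in WT, or 101 and 88.6 CPM. It was 1.14-fold higher in KO (1.06 to 1.23). Ackr3, an atypical receptor that binds the same chemokine, had 2 reads in KO and 1 in WT. Of the pair, only Cxcr4 had a level that could be compared.

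Cxcr5 (chromosome 9, 44511787 to 44561877, minus strand) had 489 reads in KO and 818 in WT, although the KO library held more reads in all. This is 21.1 CPM in KO (19.3 to 23.1) and 68.3 in WT (63.7 to 73.1), or 3.23-fold lower in KO (2.89 to 3.63). Its log2 ratio of -1.69 stood at percentile 0.661 of measured genes. The gene overlaps Bcl9l on the opposite strand, and the shared exon bases, 110 of 3332, make up 3.30% of its exons. Bcl9l, with 6118 reads in KO and 1731 in WT, had a log2 ratio of 0.87, the opposite direction. In bulk RNA, fewer cells that carry a receptor and less of its RNA per cell cannot be told apart.

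Gpr183 (chromosome 14, 121952551 to 121965195, minus strand) had 902 reads in KO and 669 in WT, or 38.9 and 55.8 CPM. It was 1.43-fold lower in KO (1.30 to 1.59), under the 1.5-fold call, with a log2 ratio of -0.52 at percentile 6.75. With scaling to total reads the log2 ratio was -0.60, past 1.5-fold. The gene lies inside Ubac2, which runs on the opposite strand; the exons of the pair do not overlap. Ubac2 had 2656 reads in KO and 1298 in WT, a log2 ratio of 0.082.

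Other cells of spleen and lymph node also carry these receptors, B cells above all for Cxcr5, Gpr183 and Ccr7. All 10 B cell markers were detected in both libraries, and their summed level was 138 CPM in KO and 172 in WT. Single markers went both ways, with log2 ratios of 0.13 for Cd79a, -0.71 for Ms4a1 and -1.04 for Cd79b. Dendritic cell markers, 7 of 7 detected, summed to 71.6 in KO and 54.8 in WT. Monocyte and macrophage markers, 6 of 6 detected, summed to 430.1 in KO and 480 in WT, and Csf1r alone had 5440 and 3192 reads. The part of these cells in the receptor values was not tested. CD8 T cell markers summed to 42.7 in KO and 35.8 in WT, plasma cell markers to 115 and 168, NK cell markers to 7.43 and 6.43, and thymocyte markers to 26.9 and 28.5. Xbp1 alone gave 2579 of the 2663 plasma cell marker reads in KO and 1947 of 2013 in WT. Cd1d1 gave 589 of the 624 thymocyte marker reads in KO and 325 of 341 in WT. The plasma cell and thymocyte sums therefore rest on 1 gene each. Other sums also leaned on 1 gene. Cd8b1 gave 818 of the 988 CD8 T cell marker reads in KO and 328 of 429 in WT. Eomes gave 145 of the 172 NK cell marker reads in KO and 43 of 77 in WT. Bst2 gave 1046 of the 1659 dendritic cell marker reads in KO and 408 of 656 in WT. Markers within a list went both ways, with log2 ratios of 0.37 for Cd8b1, -0.92 for Crtam, 0.79 for Eomes and -1.62 for Klrb1c. Erythroid markers summed to 5.57 in KO and 14.3 in WT, neutrophil markers to 1.86 and 0.751, platelet markers to 0.389 and 1.00, and stromal and endothelial markers to 327 and 298, nearly all of it from Pecam1, which T cells also express, with 7511 and 3535 reads. Rag2 and Ptcra of thymocytes, Pdpn and Lyve1 of stroma, and Tnfrsf17 of plasma cells were at 0 in both libraries.

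Per kb of exon the order of levels was the same in both libraries for the upper 4 receptors. S1pr1 led with 387 CPM per kb in KO and 314 in WT, above 99.4% and 99.2% of measured genes. Ccr7 followed at 216 in KO and 156 in WT, S1pr4 at 75.3 and 62.7, and Cxcr4 at 55.8 and 49.0. In these 4 places the neighbours did not overlap in their counting intervals. The last pair changed places. In KO, Gpr183 was at 13.5 (12.6 to 14.4) and Cxcr5 at 6.34 (5.79 to 6.92). In WT, Cxcr5 was at 20.5 (19.1 to 21.9) and Gpr183 at 19.3 (17.9 to 20.9), which overlap. Of the summed level of the 6 receptors, Cxcr5 made up 0.840% in KO and 3.30% in WT, and Ccr7 28.7% and 25.1%.

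Reads of 1 receptor per read of another within a library do not depend on how libraries are scaled. Ccr7 and Cxcr5, with the highest and lowest log2 ratio of the 6, necessarily gave the widest difference. There were 20.3 Ccr7 reads per Cxcr5 read in KO and 4.51 in WT, a 4.49-fold difference (3.99 to 5.07). Entry of cells into lymph nodes or follicles was not measured. S1pr1 reads per Cxcr5 read were 55.8 in KO and 14.0 in WT, 3.98-fold apart (3.55 to 4.47). Ccr7 reads per Gpr183 read were 11.0 in KO and 5.51 in WT, 1.99-fold apart (1.79 to 2.22). The follicle pair also differed between themselves, with 0.542 Cxcr5 reads per Gpr183 read in KO and 1.22 in WT, a KO over WT ratio of 0.443 (0.380 to 0.517). Of 15 pairs, 13 had an interval without 1. The pairs that included 1 were S1pr1 with S1pr4 and S1pr4 with Cxcr4 (1.05, 0.960 to 1.16). The share over pairs of other genes was not computed. At this depth the interval of a single gene already lay above 1 for 29.1% and below 1 for 25.6% of measured genes. The count of pairs therefore sets these receptors apart in no way.

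**Figure D2:**
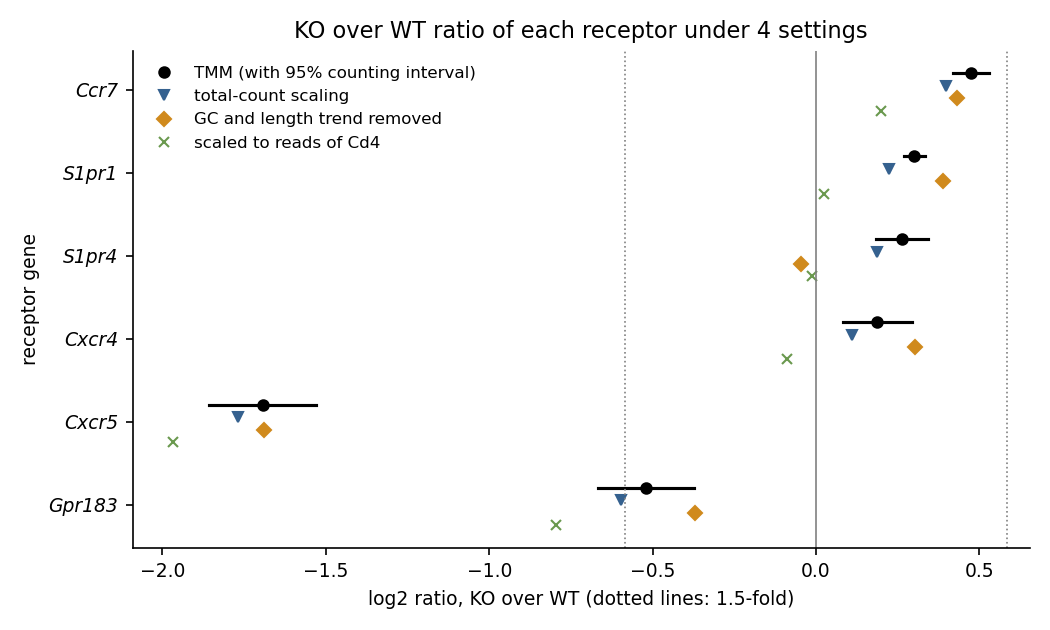
KO over WT log2 ratio of each receptor under TMM scaling (circles, with exact 95% counting intervals), total-count scaling (triangles), removal of the GC and length trend (diamonds) and scaling to the reads of Cd4 (crosses). Cxcr5 lies beyond 1.5-fold under all 4, from -1.97 to -1.69, while S1pr4 and Cxcr4 reach values on either side of 0.

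Transcripts rich in G and C had higher KO over WT ratios. The median log2 ratio was -0.18 in the lowest decile of genes by GC content and 0.36 in the highest decile. S1pr4, at 59.3% GC, is in the highest decile, where its log2 ratio of 0.26 stood at percentile 35.7. Once a smooth fit to GC content and transcript length was subtracted, it was at -0.045. Gpr183 (44.9% GC) stood at percentile 9.59 of its decile and was then at -0.37. Cxcr5 (52.5% GC) stood at percentile 1.01 of its decile and kept a log2 ratio of -1.69. Ccr7 (53.5%), S1pr1 (48.8%) and Cxcr4 (46.1%) had corrected log2 ratios of 0.43, 0.39 and 0.30. What part of the GC trend comes from library preparation was not tested.

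**Figure D3:**
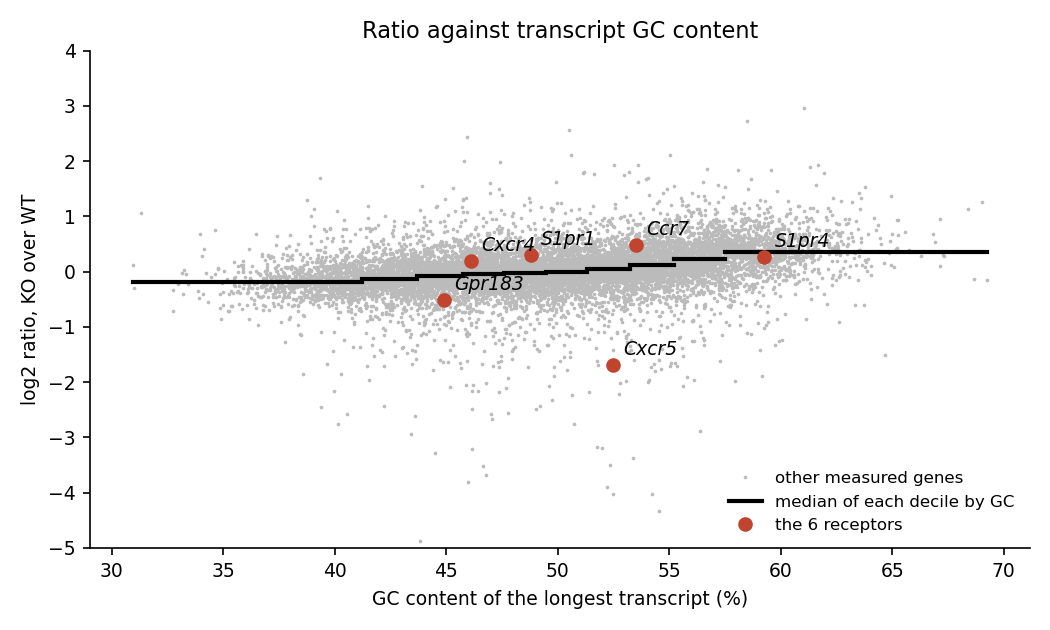
KO over WT log2 ratio against GC content (%) of the longest transcript, for measured genes (grey points), with the median of each decile by GC content (black bars) and the 6 receptors (red). The medians run from -0.18 to 0.36; Cxcr5 lies far below the median of its decile, and S1pr4 just below the median of the highest decile.

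The genes around the receptors were read from 10 lists. RNA of the cognate ligands was absent or near it: Ccl19, Ccl21a and Ch25h, the enzyme that starts oxysterol synthesis, had 0 reads in both libraries, Cxcl12 had 1 and 1, and Cxcl13 had 2 in KO and 1 in WT. Of 16 ligand genes and ligand-handling enzymes in the table, 5 were measured, 0 higher and 0 lower at 1.5-fold. Over all measured genes 7.43% were higher and 5.51% lower, so 0 of 5 is near the share over all genes. The S1P kinase Sphk2 had a log2 ratio of 0.53 (1561 reads in KO, 560 in WT), and the S1P lyase Sgpl1, which destroys S1P, -0.30. With the GC and length trend removed, Sphk2 was at 0.22 and Sgpl1 at -0.26. Hsd3b7, an oxysterol-handling enzyme, was at 0.25 on 37 and 16 reads, and Ppap2b, a lipid phosphatase that acts on S1P, at 0.15. Exons of Sphk2 overlap those of Rpl18 and Dbp on the opposite strand, so its count is less certain.

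Among upstream regulators of the receptors, 4 of 17 measured passed 1.5-fold upwards (7.43% of all measured genes did), 2 passed it downwards (5.51% of all) and 11 lay between, with a median log2 ratio of 0.31, against 0.012 for all measured genes. Klf2, which drives S1pr1 transcription and quiescence, had 9802 reads in KO and 2976 in WT, 1.70-fold higher (1.63 to 1.78). Foxo1, which drives Ccr7 and Klf2, was 1.24-fold higher (1.21 to 1.27). The E protein Tcf3 was 1.60-fold and the T cell factor Gata3 1.59-fold higher, and the E protein inhibitor Id2 was 1.56-fold lower. Cd69, whose product binds S1pr1 protein and takes it off the surface, was 1.14-fold higher (1.07 to 1.22), with 2815 reads in KO and 1275 in WT. With the GC and length trend removed, 2 of the 17 were higher and 0 lower, where 4.97% and 5.40% of all genes were, and Klf2, Tcf3 and Id2 had log2 ratios of 0.37, 0.29 and -0.50, under 1.5-fold.

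Some genes of follicular T cells were lower with Cxcr5 and others were not. Of 13 measured, 6 were at least 1.5-fold lower (5.51% of all measured genes were), 0 higher (7.43% of all) and 7 between, with a median of -0.50. The transcription factor Maf had 399 reads in KO and 939 in WT (4.55-fold lower, 4.04 to 5.13), and Tox2 had 73 and 149 (3.95-fold lower). Il1r2, the decoy receptor for IL-1, was 5.80-fold lower on 30 and 90 reads (3.80 to 9.09). The costimulatory receptor Icos was 2.61-fold lower and the inhibitory receptor Pdcd1 1.96-fold lower (1.75 to 2.20; 595 reads in KO, 603 in WT). Bcl6, the transcription factor that follicular T cells depend on, did not differ detectably at this depth, at 1.01-fold (0.907 to 1.12), with 1033 reads in KO and 530 in WT. Ascl2, which can switch on Cxcr5, had 0 reads in KO and 2 in WT. Activated Treg cells outside follicles express Icos, Maf and Pdcd1 as well, so the list does not measure follicular cells alone.

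The receptors for homing to tissues are the closest set by function. Of 10 measured, 7 were at least 1.5-fold lower (5.51% of all measured genes were), 0 higher (7.43% of all) and 3 between, with a median of -1.61. Cxcr3, which guides T cells to inflamed tissue, had 64 reads in KO and 546 in WT, the gut-homing receptor Gpr15 had 9 and 68, the skin and lung homing receptor Ccr4 178 and 1058, and Ccr2 83 and 238. Their log2 ratios were -4.02, -3.69, -3.51 and -2.45. Exons of Gpr15 overlap those of Cpox on the opposite strand. Cxcr5, at -1.69, lay within the range of these 10 receptors, close to Ccr6 (-1.54). Ccr7, S1pr1, S1pr4 and Cxcr4 lay above 9 of the 10, and below Ccr9 (0.56), a receptor for small intestine and thymus. With 1 library per group the difference between the sets was not tested.

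**Figure D4:**
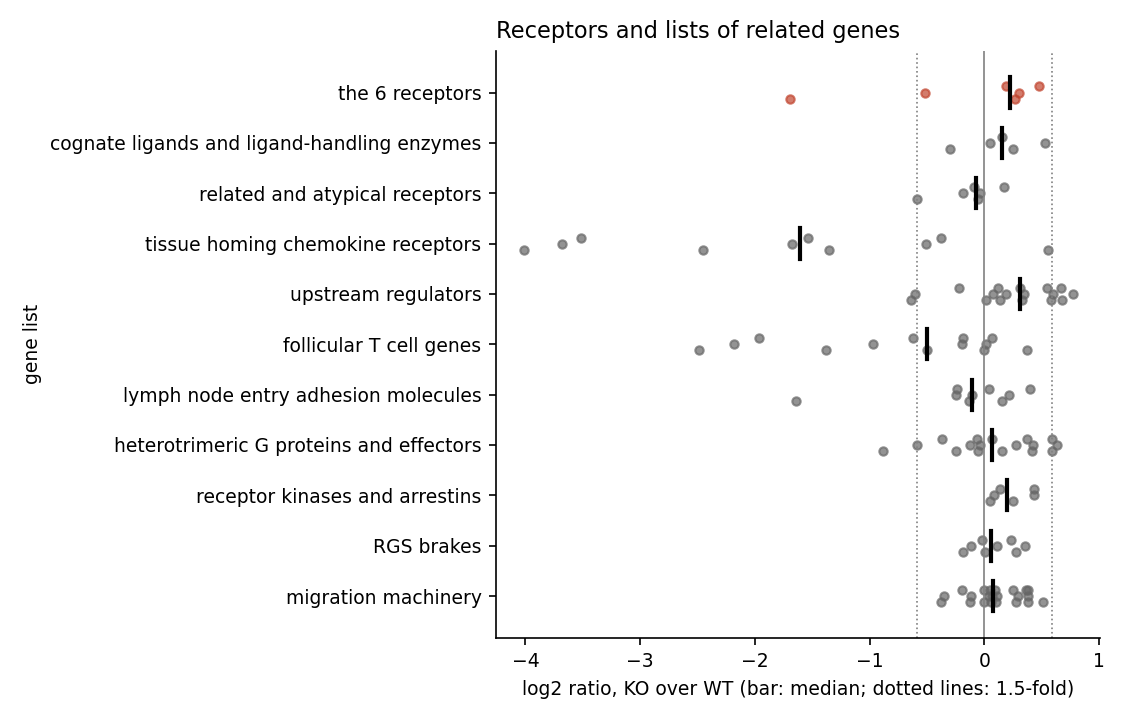
KO over WT log2 ratio of the 6 receptors (red) and of the measured genes in 10 lists of related genes (grey); black bars are medians and dotted lines mark 1.5-fold. Tissue homing receptors and follicular T cell genes reach the lowest values, with medians of -1.61 and -0.50, and migration machinery stays within 1.5-fold.

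Of 6 related receptors measured, 0 were called, with a median of -0.072. Over all measured genes 7.43% passed 1.5-fold upwards and 5.51% downwards, so 0 of 6 is near the share over all genes. Lpar6 was at -0.58, just inside the 1.5-fold threshold, P2ry10 at -0.19, Lpar5 at 0.17 and Gpr174 at -0.088. Lpar6 passed the threshold with other library scalings (total reads, DESeq2 size factors, upper quartile) and with a pseudocount of 0.5. Its exons overlap those of Rb1 on the opposite strand.

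Adhesion molecules of lymph node entry held 1 gene below the threshold among 9 measured, where 5.51% of all measured genes lay below it. This was the integrin chain Itgb1, 3.12-fold lower (2.98 to 3.26). Selplg, a selectin ligand, was at 0.40 on the log2 scale, and the integrin chains Itgb2 and Itga4 at -0.25 and -0.24. The list median was -0.11.

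Of 17 G proteins and effectors, 3 passed 1.5-fold upwards (7.43% of all measured genes did), 2 passed it downwards (5.51% of all) and 12 lay between. Gnai2, the inhibitory G protein through which these receptors mainly signal, had 54055 reads in KO and 18540 in WT, 1.51-fold higher (1.48 to 1.53). The kinase adaptor Pik3r5 was 1.55-fold higher and the exchange factor Arhgef1 1.51-fold higher, while Gnaq was 1.85-fold lower (1.56 to 2.21). All 3 higher calls were under 1.5-fold with total-count scaling and with the GC and length trend removed, where Gnai2 was at 0.37. Of 6 receptor kinases and arrestins, which switch receptors off, 0 were called; Grk5, Grk6, Adrbk1 and Arrb1 had log2 ratios of 0.43, 0.43, 0.25 and 0.14. Of 8 RGS genes, which shorten G protein signals, 0 were called; Rgs19, Rgs10, Rgs14 and Rgs2 were at 0.35, 0.28, 0.23 and -0.18, and Rgs1 at 0.0064. All 22 genes of the migration machinery lay between, led by Stk10 (0.51), Ezr (0.38), Tln1 (0.38) and Rasgrp2 (0.38). Over all measured genes 7.43% passed 1.5-fold upwards and 5.51% downwards. The 0 calls among 6 receptor kinases and arrestins and among 8 RGS genes are near those shares. With the GC and length trend removed, Tln1, Adrbk1, Arrb1 and Grk6 fell to 0.061, 0.028, -0.013 and 0.19. Stk10, Ezr, Rasgrp2 and Grk5 were then at 0.37, 0.37, 0.34 and 0.46.

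Across 2 libraries a gene's pattern is its ratio alone. Likeness was therefore the difference in log2 ratio among measured genes within 2-fold of a receptor's mean level. For Cxcr5 the nearest was Glrx, at -1.67, and 3 of 3539 such genes lay within 0.1 of it. For Gpr183 it was Ubash3b, with 147 of 3566 genes within 0.1, and for Ccr7 it was Pom121, with 119 of 1061. For S1pr1 it was Elf4 (55 of 249), for S1pr4 Ankrd17 (399 of 2227) and for Cxcr4 Clic4 (637 of 3071). Many genes share the ratios of the 4 higher receptors, and few that of Cxcr5. These counts follow from where a ratio lies among all genes, at percentile 0.661 for Cxcr5, and are not separate evidence.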

How the data were processed

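The authors deposited 1 table of raw read counts per gene, whole numbers that are not normalized, for both libraries. TopHat2 2.0.3, HTSeq and mm10 are named, per the submitters' processing notes; annotation and strand setting were not given in the sources used here. Entries outside genes (23.4% of KO and 23.4% of WT entries) were left out. Libraries were scaled with TMM in edgeR 4.0.16 (R 4.3.3; factors 0.974 for KO, 1.03 for WT), with DESeq2 1.42.0 size factors as an alternative; neither was used for a test. Fold intervals are exact conditional binomial, level intervals exact Poisson, and pair intervals exact conditional odds ratios. Reads carry no molecular identifiers, so these cover counting error only. Lengths (union of exons) and GC content (longest transcript) came from GENCODE M21 (GRCm38, the assembly that mm10 names) and matched 99.6% of measured genes. The GC and length trend was fitted with natural splines of 5 degrees of freedom. Python 3.11.15 was used. Ratios and intervals were tested on simulated Poisson counts with known folds, drawn from the observed levels. The simulation held no spread between mice and no GC trend. It therefore checks the calculation only and not how well the intervals cover these data. The members and lists were chosen with earlier results of these data known. Named genes are all members, the up to 4 measured genes per list with the largest absolute log2 ratio, and Klf2, Foxo1, Cd69, Bcl6, Pdcd1, Ascl2, Rgs1 and Gnai2; the S1P and chemokine receptors and ligands, markers and overlapping genes named besides these were chosen after their values were seen. The targeted gene and a few others within this rule are not reported here.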

Additional observations from a re-analysis of the deposited data

How the results depend on the processing

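Cxcr5 stayed at least 1.5-fold lower under all 8 alternatives, and none of the 6 receptors was called higher under any. With total-count scaling Ccr7 and S1pr1 had log2 ratios of 0.40 and 0.22, and 2 receptors were at least 1.5-fold lower, the second being Gpr183. Of all measured genes, 6.95% were lower with that scaling, against 5.51% with TMM. With the GC and length trend removed S1pr1 was at 0.39, S1pr4 at -0.045, Cxcr4 at 0.30 and Gpr183 at -0.37. Scaling to the reads of a T cell gene was chosen after seeing the data. It shifts every gene alike: the median over all genes was -0.17 with Cd3e and -0.26 with Cd4. Both genes had TMM log2 ratios above 0 (0.18 and 0.28), so both shifts were downwards. The T cell gene Cd3g, at -0.53, would shift every gene upwards instead, and scaling to its reads was not run. The calls with this kind of scaling therefore depend on the gene chosen. With Cd3e, Ccr7, S1pr1, S1pr4, Cxcr4, Cxcr5 and Gpr183 had log2 ratios of 0.29, 0.12, 0.082, 0.0067, -1.87 and -0.70. With Cd4 they were at 0.20, 0.024, -0.013, -0.088, -1.97 and -0.80. With either, 2 receptors were at least 1.5-fold lower, where 10.7% of all measured genes were with Cd3e and 15.7% with Cd4. DESeq2 size factors, upper quartile scaling and pseudocounts of 0.5 and 5 left each receptor within its counting interval. Over all genes, 57.4% of the 1.5-fold calls were higher with TMM, 45.1% with total-count scaling and 47.9% with the GC and length trend removed. Of the tissue homing receptors, 4 of 7 measured were lower with a floor of a mean of 100 reads, against 7 of 10. Over all genes 3.41% were lower with that floor, against 5.51%. Without a floor, 2617 genes passed 1.5-fold upwards and 1867 downwards, against 810 and 600; with a floor of 100 they were 509 and 309. No paired analysis was possible because each group holds 1 library. The spread between mice is not measured, and genes with few reads, such as Gpr15, have wide intervals.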
